A study of Mus musculus with 6 samples.

Results

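The genes described here are 33 mouse genes of cholesterol synthesis, uptake, storage and efflux. They were chosen by symbol for their known roles in the pathway, but with earlier results of these data known. Counts of these genes set beside all tested genes are therefore descriptive only. Each symbol matched 1 of the 20007 Entrez Gene identifiers in the files. All 33 had enough counts to be tested, as did 15272 identifiers in all. RNA sequencing (BGISEQ-500) of total RNA had been done on 6 libraries from mice of the KM strain, 2 per group. CiSCs were passaged embryonic fibroblasts that had been exposed to small compounds meant to turn them towards Sertoli cells; the labels give no names for these compounds. MSCs had been isolated from testes at postnatal day 60 as Sertoli cells and plated, and MEFs were cultured fibroblasts from embryos at 13.5 days post coitum, the age that the labels also give for the CiSCs. Passaged fibroblasts without the compounds are not among the groups, so effects of passage and of the compounds cannot be told apart. MSCs and MEFs also differ in age and tissue. Whether the 2 libraries of a group stand for separate cultures or animals is not stated, so a p-value here reflects only how far apart these libraries lie, which may be technical. That spread was pooled over the groups, although median replicate differences over all tested genes were 0.14 in CiSCs, 0.13 in MSCs and 0.37 in MEFs (log2 scale). CiSCs against MSCs were thus judged partly by the spread of MEFs. A fit with 1 MEF library left takes its spread from CiSCs and MSCs alone, so its smaller p-values are no added evidence.

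Cells make cholesterol from acetyl-CoA through mevalonate, farnesyl diphosphate, squalene and lanosterol. When membranes of the endoplasmic reticulum run low in sterol, SCAP carries the SREBP factors to the Golgi, where they are cut and released to switch on genes of synthesis and uptake. INSIG proteins hold SCAP back when sterol is plentiful. Cholesterol from lipoproteins leaves the lysosome through NPC proteins, is stored as ester or is pumped out by ABC transporters, whose genes are targets of the oxysterol receptors (LXRs). In the testis, Sertoli cells also take up lipid from residual bodies and dying germ cells, and Leydig cells use cholesterol to make steroids.

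Library totals lay between 19294700 and 20418600 expected counts (estimated reads per gene, which need not be whole), so 1 read was worth 0.0468 to 0.0543 CPM (CPM are counts scaled to a common library size). Of 16 macrophage and leukocyte markers, all were detected in every group and their summed level was 38.5 to 57.0 CPM in CiSCs, 1594 to 1671 CPM in MSCs and 13808 to 22796 CPM in MEFs. All 16 passed the test as lower in CiSCs than in either other group, and as lower in MSCs than in MEFs. The 8 Leydig cell markers summed to 11.2 to 12.3 CPM in CiSCs, 1554 to 1579 CPM in MSCs and 11.5 to 13.0 CPM in MEFs, with Cyp17a1, Hsd17b3, Lhcgr and Insl3 at 0 in CiSCs, Hsd17b3 at 0 in MSCs, and Hsd3b1, Hsd17b3 and Lhcgr at 0 in MEFs. In MSCs, Cyp17a1 had 1 read and Lhcgr 3 over both libraries, so the sum was carried by the other markers, Cyp11a1, Star, Hsd3b1, Fdx1 and Insl3. The 6 endothelial markers summed to 12.3 to 14.5 CPM in CiSCs, 92.6 to 97.1 CPM in MSCs and 10.7 to 12.1 CPM in MEFs. The 10 fibroblast markers summed to 28523 to 28723 CPM in CiSCs, 40239 to 43061 CPM in MSCs and 22053 to 24124 CPM in MEFs. Of these 10, 3 were higher and 4 lower in MSCs than in MEFs. Smooth muscle and peritubular myoid markers, 5 in all, summed to 1515 to 1682 CPM in CiSCs. Their sum was 3683 to 3864 CPM in MSCs and 3199 to 3561 CPM in MEFs. The 5 germ cell markers had their highest sum in MSCs, at 6.63 to 7.60 CPM. The 13 Sertoli cell markers summed to 4135 to 4869 CPM in CiSCs, 6130 to 9044 CPM in MSCs and 196 to 229.6 CPM in MEFs, with Fshr at 0 in CiSCs and Dmrt1 and Fshr at 0 in MEFs. Of 12 tested, 4 were higher and 1 lower in CiSCs than in MEFs, and 10 were lower in CiSCs than in MSCs. Most of the CiSC sum was Clu, at 4734 and 4020.2 CPM in CiSCs, 4852 and 7529.9 CPM in MSCs, and 5.66 and 5.87 CPM in MEFs, whereas Wt1 stood at 22.4 and 21.1 CPM in CiSCs, 175 and 225 CPM in MSCs, and 1.32 and 1.40 CPM in MEFs and Gata4 at 0.0954 and 0.0936 CPM in CiSCs, 239.8 and 265 CPM in MSCs, and 0.152 and 0.156 CPM in MEFs. Exons of Fdps overlap those of Gm43738 on the same strand, and those of Cyp51 overlap Akap9, Srebf1 overlaps Rai1 and Npc1 overlaps Rmc1 on the opposite strand. The strand of the libraries is not stated, so reads from such shared stretches cannot be told apart, and reads of Acat2 and Idi1 may be shared with their near copies Acat3 and Idi2. In bulk samples such as these, fewer cells of a type and less RNA per cell cannot be told apart.

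Across the 33 genes, MSCs stood apart through higher synthesis genes and through high Abca1, Scarb1 and Soat1 with low Mylip. CiSCs stood apart through low Abca1, Abcg1 and Nr1h3, which was not shared by all transporter genes outside the 33. By edgeR's quasi-likelihood F test, with p-values adjusted over all tested genes (Benjamini-Hochberg) and called under 0.05, 15 of the 33 were higher in MSCs than in both other groups, 12 of them synthesis genes, and Mylip was lower in MSCs than in both. Among all tested genes, 14.1% were higher and 7.38% lower in MSCs than in both. Lower in CiSCs than in both others were 8 genes, namely Ebp, Sc5d, Srebf1, Stard4, Npc2, Abca1, Abcg1 and Nr1h3, and 0 were higher in CiSCs than in both (0 also at an unadjusted p under 0.05 by edgeR, and 0 by DESeq2), where 12.1% of all tested genes were lower and 9.70% higher in CiSCs than in both. The 7 genes past the threshold in no comparison, as were 36.6% of all tested genes, were Mvk, Pmvk, Mvd, Idi1, Srebf2, Scap and Nr1h2. By DESeq2, 2 of these 7 passed in MSCs against MEFs, Idi1 (adjusted p = 0.0388) and Scap (adjusted p = 0.0269).

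**Figure D1:**
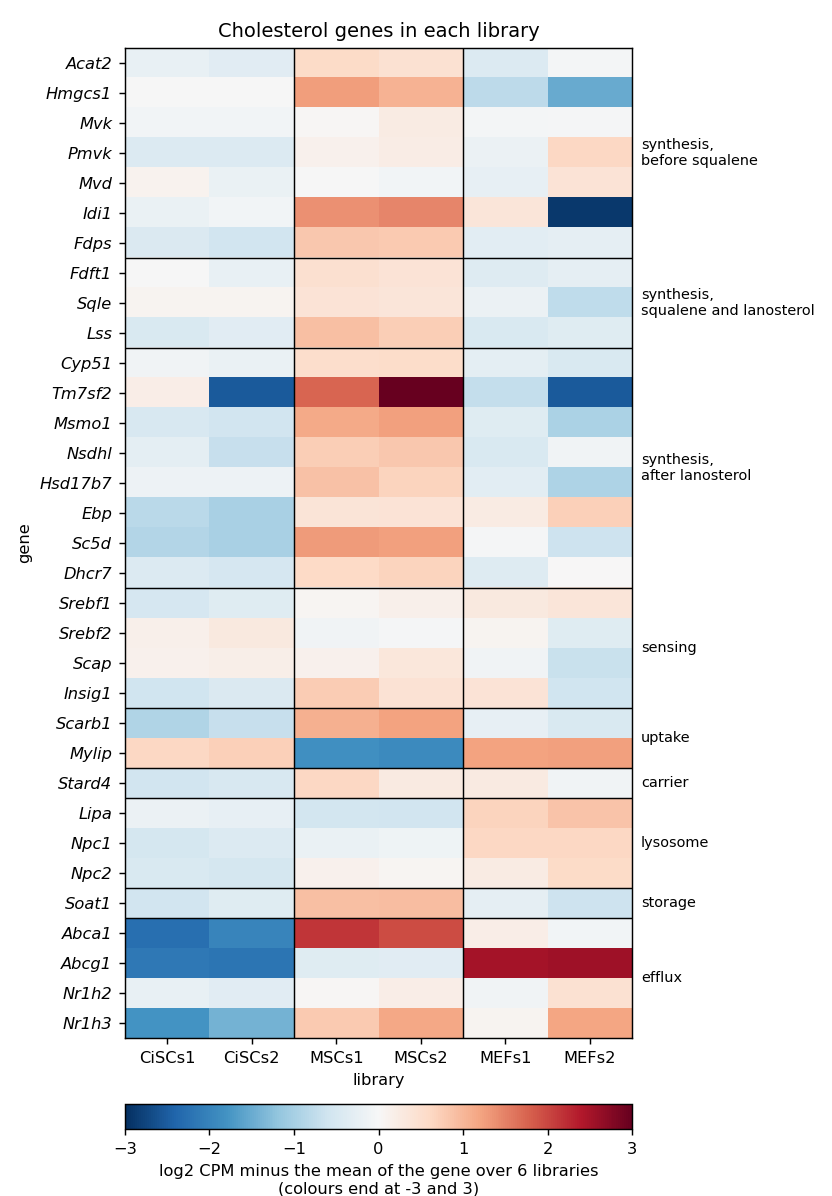
Level of each of the 33 genes (rows, by role) in each of the 6 libraries (columns), as log2 CPM minus the mean of that gene over the libraries, red above and blue below. Synthesis genes are mostly red in both MSC libraries, and Abca1, Abcg1 and Nr1h3 are blue in both CiSC libraries.

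The first question was whether the synthesis pathway, 18 genes here, differed between the groups. In MSCs 13 of the 18 were higher than in MEFs, 0 were lower and 5 did not pass, while 42.5% of all tested genes were called in that comparison, 22.5% as higher and 20.0% as lower. Their median log2 fold change was 0.99, against 0.010 over all tested genes. In CiSCs 13 were lower than in MSCs and 0 higher, with a median of -1.13 against -0.025 over all tested genes, of which 42.8% were called, 25.1% as lower and 17.7% as higher. The counts of 0 in these comparisons were also 0 at an unadjusted p under 0.05 by edgeR, and 0 by DESeq2. Against MEFs, Hmgcs1 alone passed as higher in CiSCs, and Ebp and Sc5d as lower, with a median of -0.00996 against -0.00224 over all tested genes, of which 40.9% were called, 19.6% as higher and 21.3% as lower. Every pair of these comparisons shares a group, so they are not independent of each other. Single libraries moved these counts ("without either library" means that each was left out in turn). Calls among all tested genes moved in the same direction each time, so these shifts are not particular to the synthesis genes. In MSCs against MEFs, 8 synthesis genes were higher without the second MSC library, and without the first MEF library 14 were higher and 3 lower. Between CiSCs and MSCs, 8 were lower without the first CiSC library, 7 without the second, 7 without the first MSC library and 9 without the second. Between CiSCs and MEFs, 0 were higher and 1 lower without either CiSC library, 1 lower without either MSC library, and 6 higher and 5 lower without the first MEF library. All 16 leukocyte markers were lower in MSCs than in MEFs. Of the 8 Leydig cell markers 5 were tested and higher in MSCs, a count that the filter largely fixed, since Cyp11a1, Hsd3b1 and Insl3 had 8 reads or fewer in CiSCs and in MEFs and the 3 near 0 in MSCs were not tested. The part that other cells had in the synthesis result was not tested.

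The steps before squalene make the isoprenoid building blocks. Hmgcs1, the cytosolic HMG-CoA synthase that joins acetoacetyl-CoA and acetyl-CoA, stood at 102 and 102 CPM in CiSCs, 245 and 209.9 CPM in MSCs, and 58.9 and 36.0 CPM in MEFs. Its 3 groups did not overlap, and the order was MSCs above CiSCs above MEFs. It was higher in MSCs than in MEFs (log2 fold change 2.26 ± 0.24, adjusted p = 0.000611) and in CiSCs than in MEFs (log2 fold change 1.10 ± 0.24, adjusted p = 0.0113), and lower in CiSCs than in MSCs (log2 fold change -1.16 ± 0.24, adjusted p = 0.00825). The difference between CiSCs and MEFs did not pass without the first CiSC library (adjusted p = 0.0655) or the second (adjusted p = 0.0687), and that between CiSCs and MSCs not without either CiSC library (adjusted p = 0.0654 and 0.0600) or the first MSC library (adjusted p = 0.0675). Fdps, the farnesyl diphosphate synthase, stood at 44.5 and 40.6 CPM in CiSCs, 105 and 103 CPM in MSCs, and 48.3 and 50.2 CPM in MEFs. Both MSC libraries were above all others, and the 4 remaining libraries lay close together. Fdps was higher in MSCs than in MEFs (log2 fold change 1.08 ± 0.13, adjusted p = 0.000853) and lower in CiSCs than in MSCs (log2 fold change -1.29 ± 0.13, adjusted p = 0.000344). Acat2, the cytosolic thiolase of the first step, ranged from 24.0 to 47.4 CPM over the libraries. Acat2 was higher in MSCs than in MEFs by less than 2-fold (log2 fold change 0.74 ± 0.16, adjusted p = 0.0108) and lower in CiSCs than in MSCs (log2 fold change -0.80 ± 0.16, adjusted p = 0.00755). Without the first MSC library neither Acat2 call held (adjusted p = 0.0899 and 0.0697), the first was also lost without the second MSC library (adjusted p = 0.0574), and the last without either CiSC library (adjusted p = 0.0539 and 0.0783).

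The kinase genes Mvk and Pmvk and the decarboxylase gene Mvd, which turn mevalonate into isopentenyl diphosphate, ranged from 7.30 to 22.8 CPM over the 6 libraries and passed in no comparison with all libraries. Mvk, for example, stood at 15.3 and 15.2 CPM in CiSCs, 16.4 and 19.1 CPM in MSCs, and 15.6 and 15.6 CPM in MEFs. All 6 Mvk values lay within a narrow band, with the MSC libraries on top. Leaving out the first MEF library brought Pmvk to an adjusted p of 0.000768 (log2 fold change -1.07) and Mvd to 0.0269 (-0.48) in CiSCs against MEFs, and to 0.0275 (-0.48) and 0.0248 (-0.49) in MSCs against MEFs, all lower than in MEFs. Pmvk was lower in CiSCs than in MSCs (log2 fold change -0.59 ± 0.28) with only those groups in the fit (adjusted p = 0.00932) or without the first or the second MEF library (adjusted p = 0.00673 and 0.00822). Idi1, the isomerase of isopentenyl diphosphate, stood at 4.91 and 5.33 CPM in CiSCs, 14.9 and 15.8 CPM in MSCs, and 7.33 and 0.676 CPM in MEFs. The 2 MEF libraries differed by 144.8 against 13.38 expected counts, and the MEF values enclosed both CiSC values. Idi1 did not pass in MSCs against MEFs (log2 fold change 1.93 ± 0.80, adjusted p = 0.0976), but it did without the first MEF library (adjusted p = 8.48e-06, log2 fold change 4.46) and without the second (adjusted p = 0.00202, log2 fold change 1.06). Between CiSCs and MEFs its log2 fold change was 0.35 ± 0.81, 2.88 without the first MEF library (adjusted p = 9.55e-05) and -0.52 without the second (adjusted p = 0.0482), so the direction rested on single MEF libraries. CiSCs were below MSCs (log2 fold change -1.58 ± 0.79, adjusted p = 0.156), a difference that passed without the first (adjusted p = 6.55e-05) or the second MEF library (adjusted p = 5.11e-05) and with only those groups in the fit (adjusted p = 3.81e-05).

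**Figure D2:**
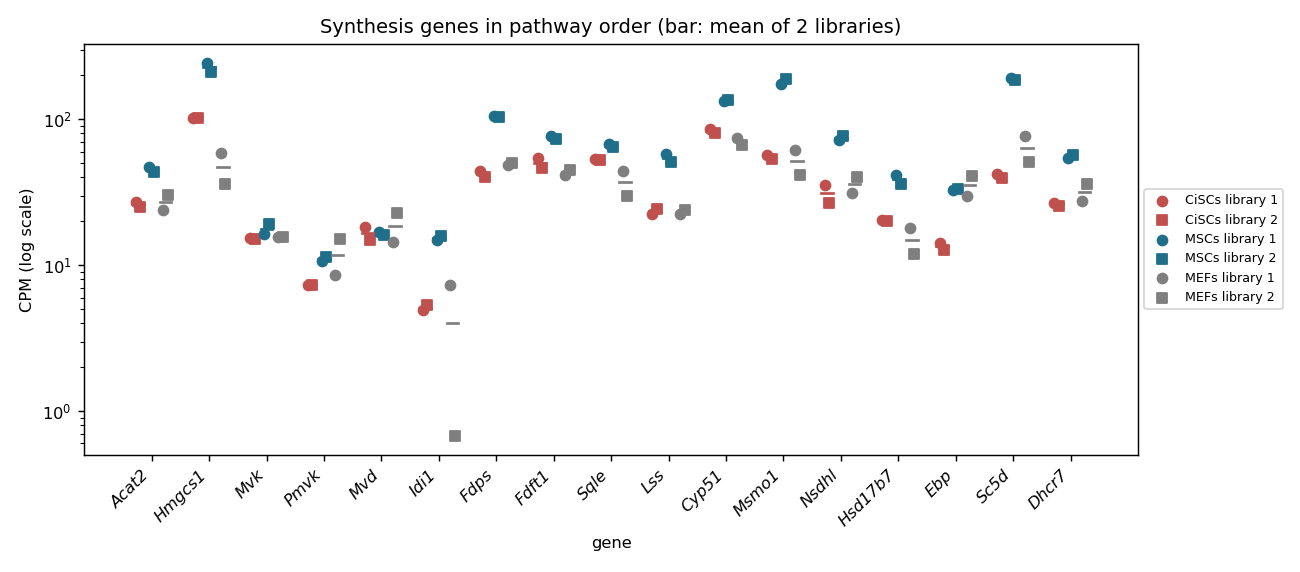
Levels (CPM, log axis) of 17 synthesis genes in pathway order in each library, with the mean of each group as a bar. Tm7sf2 is left out because it was at 0 in the second CiSC and the second MEF library. The MSC libraries lie on top for most genes, and the MEF libraries are the widest apart, most of all for Idi1.

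The middle of the pathway, from squalene to lanosterol, was higher in MSCs than in MEFs for all 3 genes. Among all tested genes, 22.5% were higher in that comparison. Lss, the lanosterol synthase that closes the ring system, stood at 22.4 and 24.3 CPM in CiSCs, 57.5 and 51.4 CPM in MSCs, and 22.3 and 23.8 CPM in MEFs. The CiSC and MEF values overlapped, and both MSC values were above them. Lss passed in MSCs against MEFs (log2 fold change 1.24 ± 0.13, adjusted p = 0.000627) and in CiSCs against MSCs (log2 fold change -1.22 ± 0.13, adjusted p = 0.000576). Fdft1, the squalene synthase, ranged from 41.8 to 76.5 CPM. It was higher in MSCs than in MEFs (log2 fold change 0.78 ± 0.14, adjusted p = 0.00498) and lower in CiSCs than in MSCs (log2 fold change -0.57 ± 0.14, adjusted p = 0.0160). The first Fdft1 call was lost without the first MSC library (adjusted p = 0.0544), and the last without any 1 of the 4 CiSC and MSC libraries (adjusted p from 0.0677 to 0.151). Fdft1 shares exon sequence with Ctsb on the opposite strand, so its counts are uncertain too. Sqle, the squalene epoxidase, ranged from 29.7 to 67.4 CPM. Sqle was higher in MSCs than in MEFs (log2 fold change 0.84 ± 0.20, adjusted p = 0.0168), though not without the first (adjusted p = 0.105) or the second MSC library (adjusted p = 0.0871). Between CiSCs and MEFs the Sqle log2 fold change was 0.52 ± 0.20 and passed only without the first MEF library (adjusted p = 0.000504, log2 fold change 0.81). CiSCs were below MSCs (log2 fold change -0.31 ± 0.20, adjusted p = 0.254), which passed without the first or the second MEF library (adjusted p = 0.0140 and 0.0150) and with only those groups in the fit (adjusted p = 0.0164).

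After lanosterol, all 8 genes were lower in CiSCs than in MSCs, as were 25.1% of all tested genes. In MSCs 7 of the 8 were higher than in MEFs, as were 22.5% of all tested genes. Both counts include Tm7sf2, whose calls were lost under several alternatives. Sc5d, the desaturase that acts on lathosterol, stood at 42.5 and 39.9 CPM in CiSCs, 192 and 185 CPM in MSCs, and 76.9 and 51.0 CPM in MEFs. Sc5d values did not overlap between groups, and the order was MSCs, MEFs, CiSCs. Sc5d was higher in MSCs than in MEFs (log2 fold change 1.56 ± 0.21, adjusted p = 0.00143) and lower in CiSCs than in MSCs (log2 fold change -2.20 ± 0.21, adjusted p = 0.000310). Its smaller difference between CiSCs and MEFs (log2 fold change -0.64 ± 0.20, adjusted p = 0.0466) did not pass without either CiSC library (adjusted p = 0.155 and 0.199), without either MSC library (adjusted p = 0.105 and 0.105), with MSCs kept out of the fit (0.0970) or without the filter on low counts (0.0601). Msmo1, which removes methyl groups from early sterols, stood at 57.3 and 53.5 CPM in CiSCs, 175 and 189 CPM in MSCs, and 62.1 and 41.3 CPM in MEFs. The CiSC values lay between the MEF values, and both MSC values were above. It passed in MSCs against MEFs (log2 fold change 1.81 ± 0.21, adjusted p = 0.000794) and in CiSCs against MSCs (log2 fold change -1.71 ± 0.21, adjusted p = 0.000856). Without the first MEF library, Msmo1 also passed in CiSCs against MEFs (log2 fold change 0.40, adjusted p = 0.0161), and without the second the log2 fold change was -0.17.

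Nsdhl and Hsd17b7 act beside Msmo1 in the same removal of methyl groups. Nsdhl stood at 35.4 and 26.8 CPM in CiSCs, 72.1 and 76.5 CPM in MSCs, and 31.5 and 40.2 CPM in MEFs. Both MSC libraries were above the 4 others, which overlapped between CiSCs and MEFs. It was higher in MSCs than in MEFs (log2 fold change 1.05 ± 0.19, adjusted p = 0.00588), except without the second MSC library (adjusted p = 0.0510), and lower in CiSCs than in MSCs (log2 fold change -1.26 ± 0.20, adjusted p = 0.00262). Hsd17b7 stood at 20.3 and 20.3 CPM in CiSCs, 41.5 and 35.9 CPM in MSCs, and 18.1 and 11.9 CPM in MEFs. Here, too, no groups overlapped, with MSCs on top and MEFs lowest. Hsd17b7 passed in MSCs against MEFs (log2 fold change 1.37 ± 0.22, adjusted p = 0.00329), and in CiSCs against MSCs (log2 fold change -0.93 ± 0.22, adjusted p = 0.0134) unless any 1 of the 4 CiSC and MSC libraries was left out (adjusted p from 0.0539 to 0.100). Without the first MEF library, Hsd17b7 was also higher in CiSCs than in MEFs (log2 fold change 0.75, adjusted p = 0.00348).

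Dhcr7, the reductase of the last step to cholesterol, stood at 26.9 and 25.4 CPM in CiSCs, 54.1 and 57.4 CPM in MSCs, and 27.6 and 36.3 CPM in MEFs. Both MSC values were above the others. It was lower in CiSCs than in MSCs (log2 fold change -1.09 ± 0.17, adjusted p = 0.00243) and higher in MSCs than in MEFs (log2 fold change 0.80 ± 0.17, adjusted p = 0.00928), the last not without either MSC library (adjusted p = 0.0584 and 0.0742). Without the first MEF library, Dhcr7 was lower in CiSCs than in MEFs (log2 fold change -0.50, adjusted p = 0.00617). Cyp51, the lanosterol demethylase, ranged from 66.9 to 135 CPM. Cyp51 was higher in MSCs than in MEFs (log2 fold change 0.92 ± 0.13, adjusted p = 0.00172) and lower in CiSCs than in MSCs (log2 fold change -0.68 ± 0.13, adjusted p = 0.00535), the last not without any 1 of the 4 CiSC and MSC libraries (adjusted p from 0.05005 to 0.0712). Without the first MEF library, Cyp51 was higher in CiSCs than in MEFs (log2 fold change 0.29, adjusted p = 0.0355).

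Ebp, the sterol isomerase of the late pathway, stood at 14.3 and 12.6 CPM in CiSCs, 32.9 and 33.3 CPM in MSCs, and 29.8 and 40.9 CPM in MEFs. The MSC values lay between the MEF values, and both CiSC values were below them. Ebp was lower in CiSCs than in MEFs (log2 fold change -1.39 ± 0.19, adjusted p = 0.00165) and than in MSCs (log2 fold change -1.30 ± 0.19, adjusted p = 0.00187), and it did not pass in MSCs against MEFs (log2 fold change -0.097 ± 0.18, adjusted p = 0.693), where it was lower without the first MEF library (log2 fold change -0.34, adjusted p = 0.0411) and at 0.15 without the second. Tm7sf2 encodes a sterol reductase whose step the nuclear envelope protein LBR can also perform. It was near the detection limit in CiSCs (12 and 0 reads) and MEFs (5 and 0 reads), and had 35 and 148 reads in MSCs. The 2 MSC libraries were themselves 4-fold apart. It passed in MSCs against MEFs (log2 fold change 5.21 ± 1.41, adjusted p = 0.0260) but not without the second MSC library (adjusted p = 0.172) or by DESeq2 (adjusted p = 0.116). In CiSCs against MSCs (log2 fold change -4.09 ± 1.25, adjusted p = 0.0381) the call was lost without the second CiSC library (adjusted p = 0.139), the first MSC library (0.0550) or the second (0.275), by DESeq2 (0.238) and without the filter on low counts (0.0509). Its fitted log2 fold changes moved widely when 1 library was left out, from 3.80 to 9.60 in MSCs against MEFs and from -9.58 to -2.68 in CiSCs against MSCs. Tm7sf2 shares exon sequence with Vps51 on the same strand, so its counts are uncertain.

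Promoter sequences are shown for synthesis genes that differed in MSCs and for Abca1, which differed most between CiSCs and MSCs by size. They come from RefSeq on the build GRCm38.p6, matched by symbol, and not from the build of the alignment (mm9). Each runs from 250 bases before to 50 bases after the start of transcription on the strand of the gene. Capitals mark TCACNCCAC, a form of the sterol regulatory element that SREBP factors bind, and CCAAT, the box bound by NF-Y, a partner of SREBP factors, each on either strand (CCAAT on the opposite strand reads ATTGG). The motifs did not overlap in these windows.
Hmgcs1 (chr13:119690101-119690400, plus strand): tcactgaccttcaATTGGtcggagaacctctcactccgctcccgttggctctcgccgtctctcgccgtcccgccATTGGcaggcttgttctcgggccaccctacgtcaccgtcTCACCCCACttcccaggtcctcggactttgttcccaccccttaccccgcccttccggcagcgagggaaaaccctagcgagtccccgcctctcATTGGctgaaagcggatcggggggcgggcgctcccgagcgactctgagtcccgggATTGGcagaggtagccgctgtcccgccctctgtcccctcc
Msmo1 (chr8:64733529-64733828, minus strand): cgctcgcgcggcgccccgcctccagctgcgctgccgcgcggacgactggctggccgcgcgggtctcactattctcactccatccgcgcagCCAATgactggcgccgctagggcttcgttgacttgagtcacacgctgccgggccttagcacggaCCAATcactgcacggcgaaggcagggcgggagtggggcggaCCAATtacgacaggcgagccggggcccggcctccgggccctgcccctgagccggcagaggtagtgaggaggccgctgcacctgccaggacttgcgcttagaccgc
Sc5d (chr9:42264251-42264550, minus strand): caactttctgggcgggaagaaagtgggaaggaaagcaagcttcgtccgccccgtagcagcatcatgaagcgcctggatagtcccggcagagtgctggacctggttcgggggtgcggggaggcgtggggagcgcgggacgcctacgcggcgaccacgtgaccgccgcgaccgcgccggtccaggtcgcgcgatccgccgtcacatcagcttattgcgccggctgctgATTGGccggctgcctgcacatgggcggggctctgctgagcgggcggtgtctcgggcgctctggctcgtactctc
Abca1 (chr4:53159846-53160145, minus strand): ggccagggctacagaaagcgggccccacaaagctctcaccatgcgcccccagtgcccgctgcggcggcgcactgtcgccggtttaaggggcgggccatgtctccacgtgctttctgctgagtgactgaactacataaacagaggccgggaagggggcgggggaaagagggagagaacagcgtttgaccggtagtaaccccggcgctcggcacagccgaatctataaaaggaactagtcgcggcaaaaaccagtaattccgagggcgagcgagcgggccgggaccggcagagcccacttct

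The Hmgcs1 window held 1 TCACNCCAC match, which started 137 bases before the start site, and 4 CCAAT matches. The Msmo1 window held 3 CCAAT matches, the Sc5d window 1 and the Abca1 window 0. Promoters were found for 26 of the 33 genes. TCACNCCAC was in 1 of these 26, Hmgcs1, and in 1.44% of 27025 genes with a promoter in the table. CCAAT was in 14 of 15 synthesis genes, in 7 of 11 others and in 41.1% of all genes in the table. These are matches of letters in short windows and say nothing of binding.

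Of the 4 genes of sterol sensing, Srebf1 and Insig1 passed in CiSCs against MSCs and Srebf1 alone in CiSCs against MEFs. Among all tested genes, 42.8% were called in CiSCs against MSCs and 40.9% in CiSCs against MEFs, so these counts do not set the sensing genes apart. Srebf2, whose product mainly drives cholesterol synthesis, passed in no comparison with all libraries, at 177 and 193 CPM in CiSCs, 147 and 155 CPM in MSCs, and 168 and 124 CPM in MEFs. The CiSC libraries were the highest, and MSCs and MEFs overlapped. Srebf2 passed in CiSCs against MSCs (log2 fold change 0.30 ± 0.17) when only those groups were in the fit (adjusted p = 0.0119) or without the first (adjusted p = 0.0189) or the second MEF library (adjusted p = 0.0192), and in CiSCs against MEFs without the first MEF library (log2 fold change 0.55, adjusted p = 0.00375). Srebf1, whose product mainly drives fatty acid synthesis, stood at 76.3 and 84.9 CPM in CiSCs, 113 and 119.8 CPM in MSCs, and 133 and 139.6 CPM in MEFs. Groups were separate, in the order MEFs, MSCs, CiSCs. Srebf1 was lower in CiSCs than in MEFs (log2 fold change -0.76 ± 0.12, adjusted p = 0.00381), not without the first CiSC library (adjusted p = 0.0580). It was also lower in CiSCs than in MSCs (log2 fold change -0.53 ± 0.12, adjusted p = 0.0146), though not without any 1 of the 4 CiSC and MSC libraries (adjusted p from 0.0744 to 0.166). Between MSCs and MEFs it passed only without the first MEF library (log2 fold change -0.30, adjusted p = 0.0469).

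Insig1, itself a target of SREBP factors, stood at 22.4 and 25.1 CPM in CiSCs, 57.4 and 46.0 CPM in MSCs, and 45.4 and 22.5 CPM in MEFs. The MEF libraries differed by a factor of 2, and MEFs overlapped with CiSCs. Insig1 was lower in CiSCs than in MSCs (log2 fold change -1.12 ± 0.32, adjusted p = 0.0312), not without any 1 of the 4 CiSC and MSC libraries (adjusted p from 0.0837 to 0.169). Its log2 fold change of -0.52 ± 0.32 in CiSCs against MEFs became 0.051 without the first MEF library and -0.94 without the second (adjusted p = 0.00178), and in MSCs against MEFs it passed without the first (log2 fold change 1.17, adjusted p = 0.000825). Scap, the escort of the SREBP factors, ranged from 78.4 to 158.8 CPM. It missed the threshold in MSCs against MEFs (log2 fold change 0.60 ± 0.20, adjusted p = 0.0530) and passed there without the first (adjusted p = 0.000708) or the second MEF library (adjusted p = 0.0492), by DESeq2 (adjusted p = 0.0269) and with a stricter filter on low counts (adjusted p = 0.0472). Scap passed in CiSCs against MEFs without the first MEF library (log2 fold change 0.81, adjusted p = 0.00107).

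The genes of sensing, uptake, carriage, lysosome, storage and efflux numbered 15. Of these, 9 were lower in CiSCs than in MEFs and 0 higher, with a median log2 fold change of -0.64, where 21.3% of all tested genes were lower and 19.6% higher. That count of 0 was 1 at an unadjusted p under 0.05 by edgeR (Scap) and 0 by DESeq2. Set against MEFs, MSCs had 3 of the 15 higher and 4 lower, with a median of 0.045, where 22.5% of all tested genes were higher and 20.0% lower, so the count was near the share of all genes. Set against MSCs, CiSCs had 1 higher and 9 lower, with a median of -0.57, where 17.7% of all tested genes were higher and 25.1% lower.

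**Figure D3:**
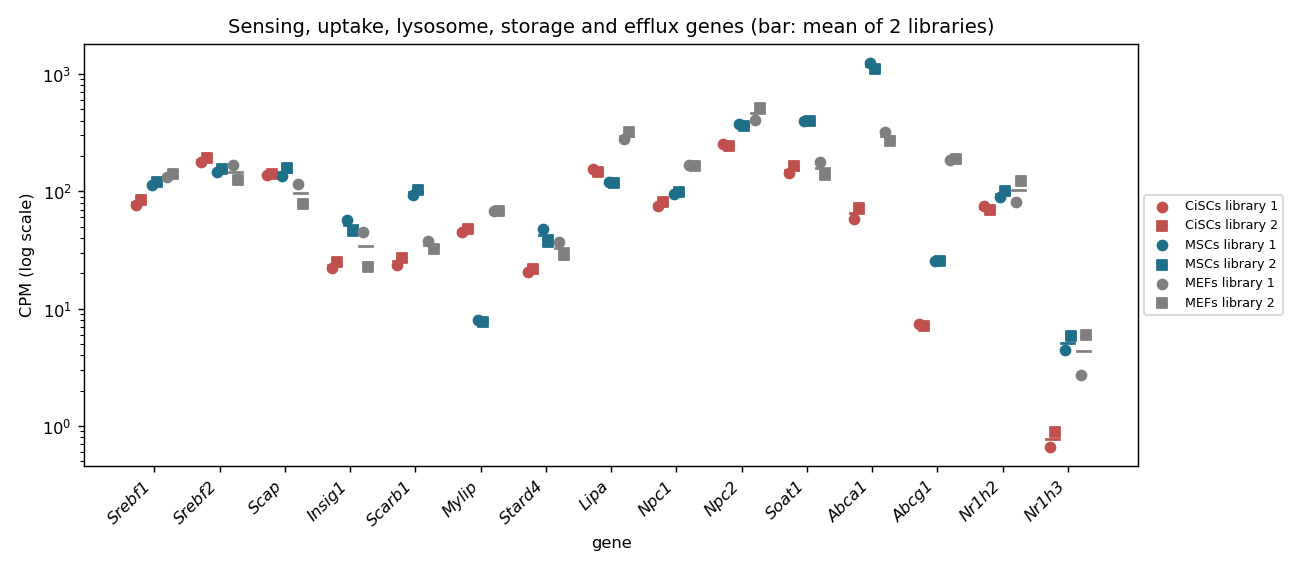
Levels (CPM, log axis) of the 15 genes outside synthesis in each library, with the mean of each group as a bar. Abca1 is highest in MSCs, Abcg1 in MEFs, and both are lowest in CiSCs, while Mylip is lowest in MSCs.

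Among the uptake genes, Scarb1 and Mylip moved in opposite directions in MSCs. Scarb1 encodes SR-BI, the receptor through which cells take cholesterol ester from high-density lipoprotein and which Leydig cells use as well. It stood at 23.8 and 27.3 CPM in CiSCs, 93.1 and 103 CPM in MSCs, and 37.6 and 32.1 CPM in MEFs. Both MSC values were above the others, and CiSCs lay below MEFs. Scarb1 was higher in MSCs than in MEFs (log2 fold change 1.49 ± 0.15, adjusted p = 0.000507) and lower in CiSCs than in MSCs (log2 fold change -1.94 ± 0.16, adjusted p = 0.000152). It missed the threshold in CiSCs against MEFs (log2 fold change -0.45 ± 0.15, adjusted p = 0.0572), but passed by DESeq2 (adjusted p = 0.0427) and without the second MEF library (log2 fold change -0.56, adjusted p = 0.0110). Of the Leydig cell markers, Cyp11a1, Star, Hsd3b1, Fdx1 and Insl3 were high in the same MSC libraries, while Cyp17a1, Lhcgr and Hsd17b3 were at or near 0 there. The part of Leydig cells in the Scarb1 result was not tested.

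Mylip encodes IDOL, the ubiquitin ligase that marks lipoprotein receptors for degradation and whose gene is a target of LXRs. It stood at 44.7 and 48.2 CPM in CiSCs, 8.08 and 7.66 CPM in MSCs, and 67.8 and 68.2 CPM in MEFs. Both MSC libraries were far below the 4 others, and CiSCs below MEFs. Mylip was lower in MSCs than in MEFs (log2 fold change -3.11 ± 0.14, adjusted p = 2.13e-05) and higher in CiSCs than in MSCs (log2 fold change 2.56 ± 0.14, adjusted p = 3.08e-05), the only 1 of the 33 genes to pass as higher in that comparison. CiSCs were somewhat below MEFs (log2 fold change -0.55 ± 0.12, adjusted p = 0.0135), a call lost without the first or the second CiSC library (adjusted p = 0.118 and 0.0796) and the first or the second MSC library (adjusted p = 0.0529 and 0.0521).

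Stard4, a soluble sterol carrier whose gene is an SREBP target, stood at 20.4 and 21.8 CPM in CiSCs, 47.5 and 36.8 CPM in MSCs, and 37.1 and 28.5 CPM in MEFs. Both CiSC values were the lowest, and MSCs and MEFs overlapped. Stard4 was lower in CiSCs than in MSCs (log2 fold change -0.998 ± 0.19, adjusted p = 0.00654), not without the first CiSC (adjusted p = 0.0640) or the first MSC library (adjusted p = 0.0605). It was lower in CiSCs than in MEFs (log2 fold change -0.64 ± 0.19, adjusted p = 0.0381), not without either CiSC library (adjusted p = 0.179 and 0.138), either MSC library (adjusted p = 0.0628 and 0.0616) or with only the groups compared in the fit (0.0577). Between MSCs and MEFs it passed without the first MEF library (log2 fold change 0.53, adjusted p = 0.0285).

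All 3 genes that release cholesterol from lysosomes were lower in CiSCs than in MEFs, as were 21.3% of all tested genes. Lipa and Npc1 were also lower in MSCs than in MEFs, as were 20.0% of all tested genes. Lipa, the lysosomal acid lipase that splits cholesterol esters, stood at 155 and 148 CPM in CiSCs, 119.9 and 118 CPM in MSCs, and 279 and 318 CPM in MEFs. MSCs were the lowest and MEFs the highest, with no overlap. Lipa was lower than in MEFs in both CiSCs (log2 fold change -0.98 ± 0.13, adjusted p = 0.00150) and MSCs (log2 fold change -1.32 ± 0.13, adjusted p = 0.000392). Between CiSCs and MSCs (log2 fold change 0.35 ± 0.13) it missed the threshold (adjusted p = 0.0688) but passed by DESeq2 (adjusted p = 0.0437), with only those groups in the fit (0.00418) and without the first or the second MEF library (0.00600 and 0.00680). Npc1, the membrane protein that exports cholesterol from the lysosome, stood at 74.9 and 81.2 CPM in CiSCs, 94.5 and 98.9 CPM in MSCs, and 167 and 166 CPM in MEFs. Both MEF values were the highest and the CiSC values the lowest. It was lower than in MEFs in both CiSCs (log2 fold change -1.09 ± 0.12, adjusted p = 0.000679) and MSCs (log2 fold change -0.79 ± 0.12, adjusted p = 0.00264), and between CiSCs and MSCs (log2 fold change -0.31 ± 0.12, adjusted p = 0.0785) it passed with only those groups in the fit (0.0201) and without either MEF library (adjusted p = 0.0179 in each case).

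Npc2, the soluble partner that hands cholesterol to NPC1, stood at 255 and 242 CPM in CiSCs, 378 and 359 CPM in MSCs, and 410.2 and 514 CPM in MEFs. The order was MEFs, MSCs, CiSCs, without overlap. Npc2 was lower in CiSCs than in MEFs (log2 fold change -0.90 ± 0.15, adjusted p = 0.00436) and than in MSCs (log2 fold change -0.57 ± 0.15, adjusted p = 0.0231), the last not without any 1 of the 4 CiSC and MSC libraries (adjusted p from 0.112 to 0.152). Between MSCs and MEFs it passed only without the first MEF library (log2 fold change -0.51, adjusted p = 0.00268). These lysosomal genes are also abundant in macrophages. The summed leukocyte markers had the order of Npc1 and Npc2, highest in MEFs and lowest in CiSCs, whereas Lipa was lowest in MSCs, and the part of leukocytes in these differences was not tested.

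Soat1, the enzyme that stores cholesterol as ester, stood at 143 and 164 CPM in CiSCs, 398 and 401 CPM in MSCs, and 177 and 137 CPM in MEFs. Both MSC values were above all others, and CiSCs and MEFs overlapped. Soat1 was higher in MSCs than in MEFs (log2 fold change 1.35 ± 0.17, adjusted p = 0.00106) and lower in CiSCs than in MSCs (log2 fold change -1.38 ± 0.17, adjusted p = 0.000819), calls that held under all 14 alternatives tried. Its log2 fold change in CiSCs against MEFs was -0.036 ± 0.16 (adjusted p = 0.879).

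The pumps Abca1 and Abcg1 had the largest fold changes of the 33 genes apart from Tm7sf2, and they ranked the groups differently. Abca1, the transporter that loads cholesterol onto apolipoprotein A-I, stood at 58.6 and 71.7 CPM in CiSCs, 1239.7 and 1099.9 CPM in MSCs, and 322 and 267 CPM in MEFs. The order was MSCs, MEFs, CiSCs, without overlap. Abca1 was higher in MSCs than in MEFs (log2 fold change 1.99 ± 0.18, adjusted p = 0.000261), and lower in CiSCs than in MEFs (log2 fold change -2.17 ± 0.18, adjusted p = 0.000195) and than in MSCs (log2 fold change -4.17 ± 0.19, adjusted p = 1.98e-05). Abcg1, which moves cholesterol to high-density lipoprotein and is abundant in macrophages, stood at 7.35 and 7.11 CPM in CiSCs, 25.5 and 25.7 CPM in MSCs, and 185 and 190.5 CPM in MEFs. The order was MEFs, MSCs, CiSCs, and replicate values were close. Abcg1 was lower than in MEFs in both CiSCs (log2 fold change -4.70 ± 0.14, adjusted p = 1.49e-05) and MSCs (log2 fold change -2.87 ± 0.13, adjusted p = 2.08e-05), and lower in CiSCs than in MSCs (log2 fold change -1.83 ± 0.13, adjusted p = 8.77e-05). All 6 of these calls held under the 14 alternatives tried. The summed leukocyte markers had the same order as Abcg1, and their part in it was not tested. Abca1, too, was lowest in CiSCs, but it was highest in MSCs, where the summed Leydig cell markers were also highest. The part of leukocytes and Leydig cells in the Abca1 differences was not tested.

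Nr1h3 (LXR alpha) and Nr1h2 (LXR beta) encode the oxysterol receptors that switch on both pumps. Nr1h3 stood at 0.668 and 0.889 CPM in CiSCs, 4.47 and 5.81 CPM in MSCs, and 2.73 and 5.98 CPM in MEFs. Both CiSC values were the lowest, and the MSC values lay between the MEF values. It was lower in CiSCs than in MEFs (log2 fold change -2.47 ± 0.46, adjusted p = 0.00657), not without the first CiSC library (adjusted p = 0.0535), and lower than in MSCs (log2 fold change -2.71 ± 0.46, adjusted p = 0.00385). Without the second MEF library the log2 fold change in CiSCs against MEFs was -1.80. Nr1h3 did not pass in MSCs against MEFs (log2 fold change 0.24 ± 0.40, adjusted p = 0.657) and its direction changed without the first MEF library (log2 fold change -0.25). Nr1h2 ranged from 69.2 to 122 CPM and passed in no comparison with all libraries. It was lower in CiSCs than in MSCs (log2 fold change -0.40 ± 0.20) with only those groups in the fit (adjusted p = 0.00981) or without the first or the second MEF library (adjusted p = 0.00786 and 0.00934). Without the first MEF library it was also lower than in MEFs in CiSCs (log2 fold change -0.79, adjusted p = 0.000665) and in MSCs (log2 fold change -0.39, adjusted p = 0.0178).

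**Figure D4:**
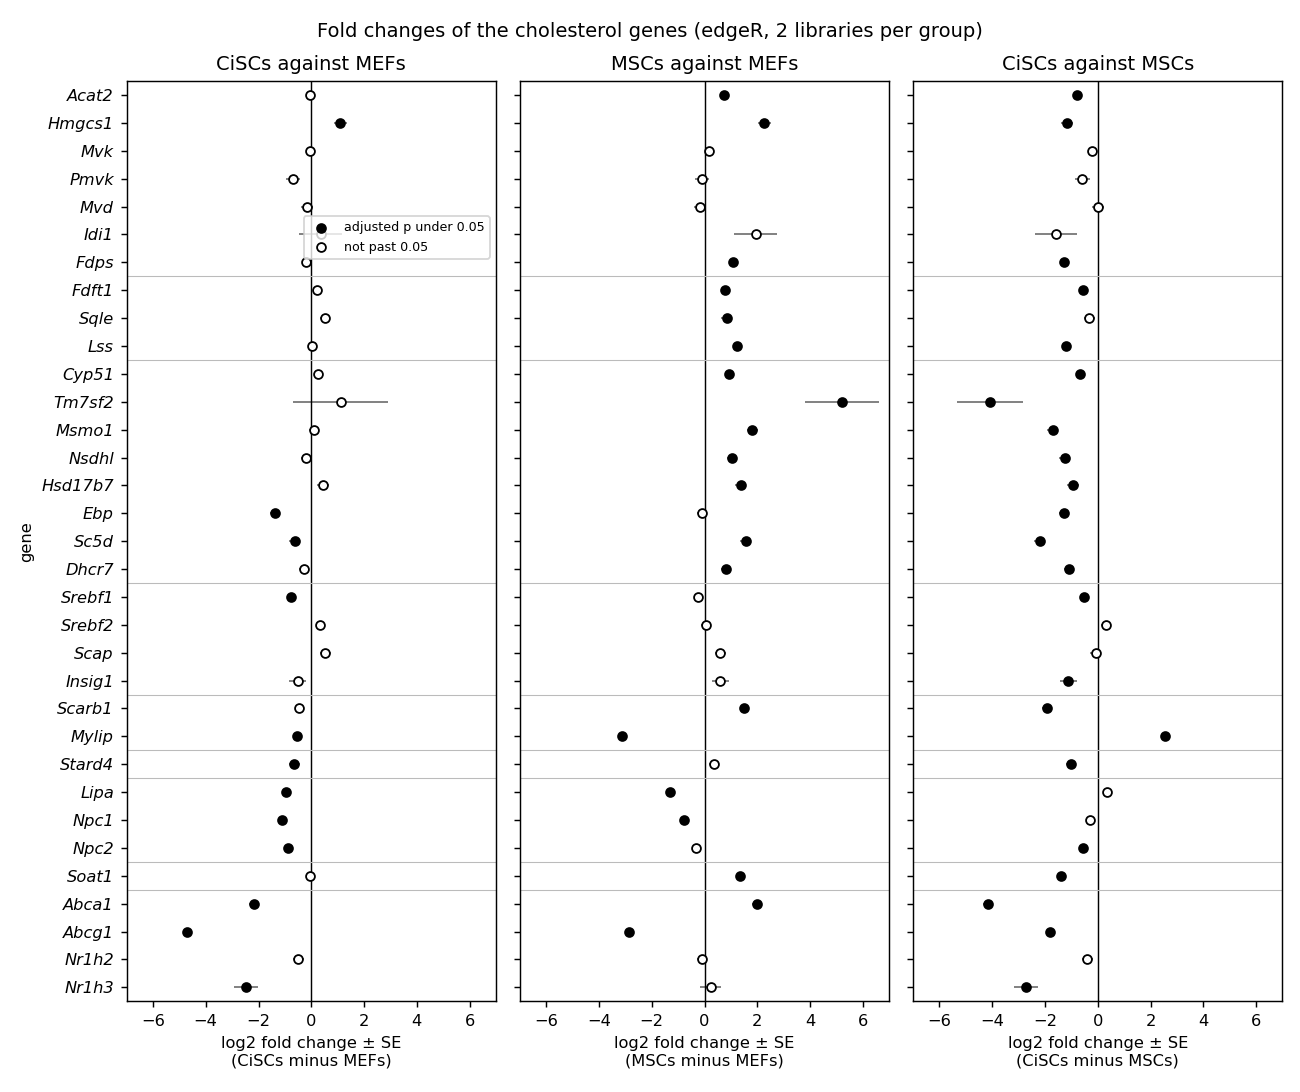
Log2 fold change with its standard error for each of the 33 genes (rows, grouped by role) in the 3 comparisons, filled where the adjusted p was under 0.05 by edgeR. Most synthesis genes lie right of 0 in MSCs against MEFs and left of 0 in CiSCs against MSCs, and Abca1, Abcg1 and Nr1h3 lie far left in CiSCs against MEFs.

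Over all 33 genes, 1 was higher and 11 were lower in CiSCs than in MEFs, with a median log2 fold change of -0.21, beside 19.6% higher and 21.3% lower among all tested genes. MSCs had 16 higher and 4 lower than MEFs, with a median of 0.74, beside 22.5% higher and 20.0% lower. CiSCs had 1 higher and 22 lower than MSCs, with a median of -0.998, beside 17.7% higher and 25.1% lower. With a library left out, calls among all tested genes rose or fell in the same direction as the counts that follow. Leaving out the first CiSC library left 0 higher and 6 lower against MEFs, and without the first MEF library there were 8 higher and 15 lower. Against MSCs, CiSCs had 12 lower without the first MSC library and 13 without either CiSC library, and 3 higher without either MEF library. Without the first MEF library, 10 were lower in MSCs than in MEFs. Of these 55 calls, 33 held under all 14 alternatives of library, test, filter, scaling and threshold. They were 6 of 12 in CiSCs against MEFs (Ebp, Lipa, Npc1, Npc2, Abca1 and Abcg1), 14 of 20 in MSCs against MEFs and 13 of 23 in CiSCs against MSCs. The share of calls that held was not computed for all tested genes, so whether it differs for these genes is not known. A further 30 differences that did not pass with all libraries passed under some alternative, and each passed without the first or the second MEF library. The median difference between replicate libraries, on the log2 scale and without sign, was 0.12 in CiSCs, 0.09 in MSCs and 0.38 in MEFs over the 33 genes, against 0.14 in CiSCs, 0.13 in MSCs and 0.37 in MEFs over all tested genes. The 4 genes over 2-fold apart in MEFs were Idi1, Tm7sf2, Insig1 and Nr1h3, and Tm7sf2 was the only such gene in CiSCs and in MSCs. Within MEFs, Hmgcs1, Idi1, Sqle, Tm7sf2, Msmo1, Hsd17b7, Sc5d, Scap and Insig1 were higher in the first library by over 0.5 on the log2 scale, while Pmvk, Mvd, Nr1h2 and Nr1h3 were higher in the second by as much.

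**Figure D5:**
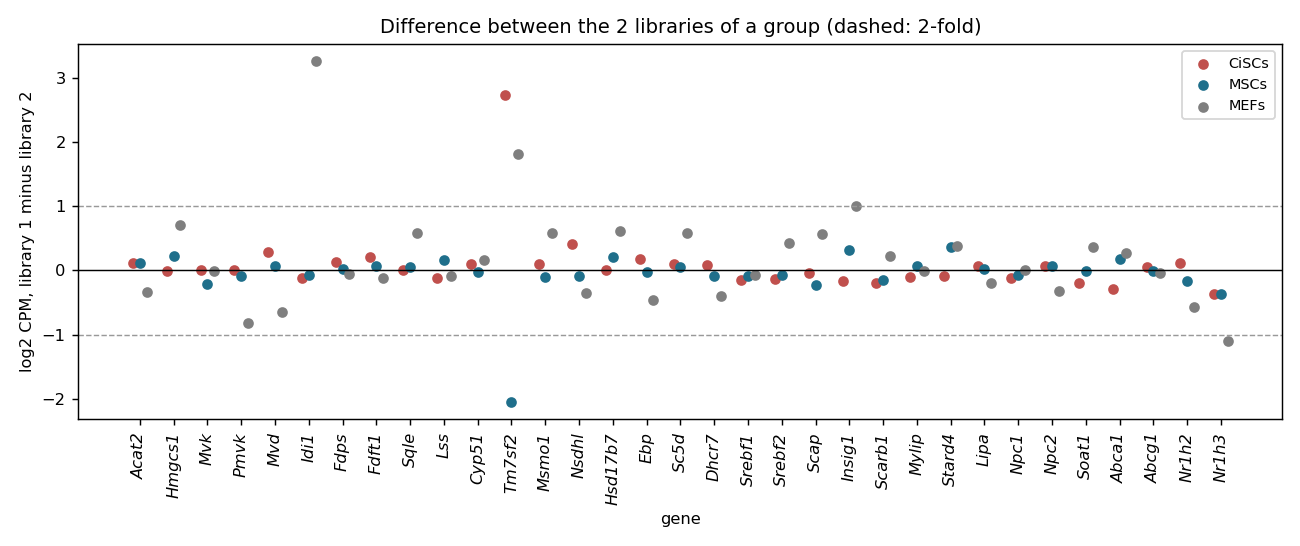
Difference in log2 CPM between the first and the second library of each group for each of the 33 genes, with dashed lines at 2-fold. MEF points scatter most widely, and the CiSC and MSC points stay near 0 except for Tm7sf2.

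Other genes of the pathway were read from lists of their own, whose counts stand beside the shares of all tested genes, 19.6% higher and 21.3% lower in CiSCs than in MEFs, 22.5% and 20.0% in MSCs than in MEFs, and 17.7% and 25.1% in CiSCs than in MSCs. Of 21 further genes of sterol regulation and isoprenoid synthesis, 3 were higher and 3 lower in CiSCs than in MEFs (median log2 fold change 0.090), 3 higher and 1 lower in MSCs than in MEFs (0.11), and 6 lower and 15 not past the threshold in CiSCs than in MSCs (-0.094), so these counts were near or below the shares of all genes. Ggps1, which makes the geranylgeranyl diphosphate used to modify proteins, stood at 41.6 and 40.9 CPM in CiSCs, 60.4 and 63.2 CPM in MSCs, and 30.1 and 24.4 CPM in MEFs. It was higher in MSCs than in MEFs (log2 fold change 1.18 ± 0.15, adjusted p = 0.00124), with both MSC libraries on top. Of 16 tested lipoprotein and scavenger receptor genes, 4 were higher and 8 lower in CiSCs than in MEFs (median -1.16), 4 higher and 5 lower in MSCs than in MEFs (0.21), and 1 higher and 10 lower in CiSCs than in MSCs (-1.05). Stab1, a scavenger receptor gene of macrophages and endothelium, stood at 2.10 and 2.57 CPM in CiSCs, 72.5 and 66.4 CPM in MSCs, and 654 and 878 CPM in MEFs. Its order was MEFs, MSCs, CiSCs, as for the leukocyte markers. Of the genes called in CiSCs against MEFs, Stab1, Msr1 and Cd68 had the largest changes (log2 fold changes -8.35, -8.34 and -7.36). Cd68 is also among the leukocyte markers. The fatty acid and scavenger receptor gene Cd36 stood at 0.477 and 0.281 CPM in CiSCs, 82.8 and 71.1 CPM in MSCs, and 5.87 and 5.09 CPM in MEFs and was highest in MSCs.

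Genes that turn cholesterol into steroids, 10 of 14 listed being tested, were higher in MSCs than in MEFs for 9 and lower in CiSCs than in MSCs for 9. Among all tested genes, 22.5% were higher in the first of these comparisons and 25.1% lower in the second. Cyp11a1, which cuts the cholesterol side chain, stood at 0.143 and 0.0468 CPM in CiSCs, 773 and 794 CPM in MSCs, and 0.202 and 0.208 CPM in MEFs. Nr5a1, a regulator of steroid synthesis, had 0 reads in CiSCs against 137 and 150.0 CPM in MSCs, at least 2020-fold lower in CiSCs against a limit of 3 reads over the group. A gene near 0 in CiSCs and MEFs could be tested only through its counts in MSCs, so these counts rest on the filter as well, and several of these genes are Leydig cell markers.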

How the data were processed

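Total RNA of 6 libraries had been sequenced on the BGISEQ-500. The authors deposited 1 table per library of expected counts (estimated reads per Entrez gene); per the submitters' processing notes HISAT and the mouse build mm9 were used. The counting program, annotation, strand and filters are not given in the sources used here. Totals differed between libraries, and 42.0% to 43.8% of the values departed from a whole number by more than 1e-09.

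Counts were rounded and fitted in R 4.3.3 with edgeR 4.0.16: default filter on low counts (15272 genes kept), TMM scaling, a quasi-likelihood fit of all 6 libraries with a mean for each group (3 residual degrees of freedom), two-sided F tests, and Benjamini-Hochberg adjustment over all tested genes at 0.05. Standard errors are the fold change divided by the root of F. The procedure was tried on simulated counts for CiSCs against MEFs only, with large changes put into genes of higher counts. That trial does not cover genes with few counts or small changes. Library totals of 19294700 to 20418600 counts limit precision as given beside the values; such limits cover counting error only, since no molecular identifiers are mentioned. Alternatives left out each library, blocked on the replicate number, or used only the groups compared, median-ratio size factors, DESeq2 1.42.0, no filter, at least 5 CPM in at least 2 libraries, an adjusted p under 0.01, or counts not rounded. A block with crossed numbers was added after the data had been seen. Symbols for 18891 of 20007 identifiers came from RefSeq (GRCm38.p6), and exon overlaps, by name only, from GENCODE. Genes with no symbol were tested but not named.

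The 33 genes, the other lists and the alternatives were chosen with earlier results of these data known. Genes past the threshold with at least a 2-fold change in any comparison, and Stard4, whose role has no such gene, are given in every library and the rest by range, except that Mvk, Idi1, Srebf1, Srebf2, Npc2 and the markers Clu, Wt1 and Gata4 were added after their values were seen. From each other list up to 3 genes per comparison could be named, those with the largest changes and at least 5 CPM.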

Additional observations from a re-analysis of the deposited data

How the results depend on the processing

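Over the 33 genes and 3 comparisons, median-ratio size factors and counts not rounded changed no call and no direction, and scaling moved the median log2 fold change of all genes by 0.02 or less. Leaving out 1 library gave 3395 to 9487 called genes in CiSCs against MEFs (6250 with all), 3516 to 9745 in MSCs against MEFs (6497) and 3910 to 9369 in CiSCs against MSCs (6534). In the same order of comparisons, the 33 genes then gave 0 to 8, 11 to 20 and 1 to 3 higher and 6 to 15, 4 to 10 and 12 to 27 lower, and the synthesis genes 0 to 6 and 8 to 14 higher in the first pair and 1 to 5, 0 to 3 and 7 to 16 lower. Leaving out a library leaves a group with 1 library, assumed to vary like the others, and 2 residual degrees of freedom. An adjusted p under 0.01 called 3774, 4009 and 4324 genes, and in CiSCs against MEFs 0 genes of the set as higher, 0 synthesis genes as higher and 1 as lower. In CiSCs against MEFs 1 synthesis gene in place of 2 was lower with the replicate block, with only the groups compared in the fit and with no filter. In CiSCs against MSCs 3 genes in place of 1 were higher with only those groups in the fit and 2 by DESeq2. The libraries share only a replicate number: differences between libraries 1 and 2 correlated across genes at -0.21 for CiSCs and MEFs, 0.14 for MSCs and MEFs and -0.13 for CiSCs and MSCs. The replicate block called 5468, 5672 and 5814 genes and lost Sc5d in CiSCs against MEFs (adjusted p = 0.0513) and Tm7sf2 in CiSCs against MSCs (0.0711), with no other call of the 33 changed. With the CiSC numbers crossed, an alternative chosen after seeing the data, it called 6829, 7158 and 6998. Directions changed in 20 cases, none of them a gene called with all libraries. Over single libraries left out, log2 fold changes of these genes in CiSCs against MEFs ran from -4.40 to 5.52 for Tm7sf2, -0.21 to 0.13 for Soat1, -0.072 to 0.067 for Lss, -0.94 to 0.051 for Insig1, -0.25 to 0.12 for Acat2, -0.48 to 0.20 for Mvd, -0.52 to 2.88 for Idi1 and -0.17 to 0.40 for Msmo1. In MSCs against MEFs they ran from -0.25 to 0.91 for Nr1h3, -0.48 to 0.36 for Pmvk, -0.49 to 0.19 for Mvd, -0.34 to 0.15 for Ebp, -0.16 to 0.24 for Srebf2 and -0.39 to 0.22 for Nr1h2. In CiSCs against MSCs they ran from -0.14 to 0.14 for Mvd and -0.19 to 0.041 for Scap, and Mvd stood at -0.013 with a stricter filter. The causes were not tested.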

Other observations

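The list counts here stand beside all tested genes, of which 19.6% were higher and 21.3% lower in CiSCs than in MEFs, 22.5% higher and 20.0% lower in MSCs than in MEFs, and 17.7% higher and 25.1% lower in CiSCs than in MSCs. SREBP factors also control genes of fatty acid synthesis. Of 16 tested, 5 were higher and 1 lower in CiSCs than in MEFs (median log2 fold change 0.37), 8 higher and 1 lower in MSCs than in MEFs (0.97), and 2 higher and 6 lower in CiSCs than in MSCs (-0.27). Me1, the malic enzyme that supplies NADPH, stood at 86.2 and 85.6 CPM in CiSCs, 1269.9 and 1217 CPM in MSCs, and 90.1 and 68.0 CPM in MEFs. Gpam, the acyltransferase that starts triglyceride synthesis, stood at 29.7 and 34.9 CPM in CiSCs, 287 and 246 CPM in MSCs, and 19.7 and 16.5 CPM in MEFs, and the desaturase gene Scd1 at 319 and 335 CPM in CiSCs, 829 and 825 CPM in MSCs, and 201 and 128 CPM in MEFs. All 3 were higher in MSCs than in MEFs, with log2 fold changes of 3.98 ± 0.18, 3.88 ± 0.18 and 2.33 ± 0.23 (adjusted p = 2.54e-05, 2.5e-05 and 0.000405). In CiSCs against MEFs, Gpam and Scd1 passed as higher (log2 fold changes 0.83 ± 0.16 and 0.99 ± 0.22, adjusted p = 0.00821 and 0.0128), and Me1 did not pass (adjusted p = 0.591).

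Of 23 genes of sterol carriers and lysosomal membranes, 5 were higher and 8 lower in CiSCs than in MEFs (median -0.12), 4 higher and 4 lower in MSCs than in MEFs (-0.16), and 7 higher and 9 lower in CiSCs than in MSCs (-0.17). Gramd1b, which carries sterol from the plasma membrane to the endoplasmic reticulum, stood at 29.6 and 29.4 CPM in CiSCs, 247 and 227 CPM in MSCs, and 94.9 and 104 CPM in MEFs and passed in MSCs against MEFs (log2 fold change 1.25 ± 0.12, adjusted p = 0.000426) and in CiSCs against MSCs (log2 fold change -3.01 ± 0.13, adjusted p = 1.84e-05). Of 27 tested genes of ester breakdown, oxysterols and other transporters, 7 were higher and 8 lower in CiSCs than in MEFs (median 0.16), 10 higher and 3 lower in MSCs than in MEFs (0.17), and 6 higher and 11 lower in CiSCs than in MSCs (-0.047). The transporter gene Abca9 was highest in CiSCs, with means of 34.1 CPM in CiSCs, 7.81 CPM in MSCs and 1.35 CPM in MEFs. Against MEFs its log2 fold change in CiSCs was 4.64 ± 0.36 (adjusted p = 0.000166). Abca6, in contrast, was highest in MSCs, with means of 2.52 CPM in CiSCs, 26.1 CPM in MSCs and 0.537 CPM in MEFs. It was lower in CiSCs than in MSCs (log2 fold change -3.37 ± 0.28, adjusted p = 0.000173), though its CiSC mean, like that of Abca9, was above its MEF mean. Cyp7b1, an oxysterol hydroxylase gene, stood at 130.1 and 122 CPM in CiSCs, 92.1 and 103 CPM in MSCs, and 2.98 and 2.39 CPM in MEFs, so that CiSCs and MSCs were both far above MEFs, with log2 fold changes of 5.55 ± 0.18 and 5.18 ± 0.18 (adjusted p = 1.49e-05 and 1.18e-05). Nceh1, a cholesterol ester hydrolase gene, stood at 9.59 and 8.47 CPM in CiSCs, 83.8 and 84.6 CPM in MSCs, and 86.7 and 82.8 CPM in MEFs, and it was lower in CiSCs than in MSCs (log2 fold change -3.22 ± 0.14, adjusted p = 1.84e-05).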
